A study of Mus musculus with 8 samples.

Results

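The 36 genes described here encode the machinery that copies DNA in S phase, and were chosen as a list of gene names, with all 36 found among the 26709 genes of the deposited table. Each passed the filter on low counts, with 680 to 16261 estimated counts per library, so the counts below cover the whole list. RNA was sequenced from 8 mammary tumours grown in Balb/c mice, genotype WT, from EMT6, a mouse mammary carcinoma line that is syngeneic with these animals. For 4 tumours the animals had received IgG, the control. For the other 4 they had received GrB-Fc-KS49, a human fusion protein with granzyme B in it, aimed at EMP2, a protein of the cell surface, and labelled Granzyme-B. Doses were given 3 times over 10 days, and ages were not found in the labels. All tumours share the strain and the 1 transplanted line, and each was sampled whole, with the host cells it held. Since separate animals are not stated, the tests cover the variation among these 8 samples, part of which may be technical.

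Before S phase, the origin recognition complex (ORC), Cdc6 and Cdt1 load the MCM2-7 helicase onto origins, a step called licensing that geminin blocks once S phase has begun. Cdc45 and the GINS complex then turn the helicase on, primase and the DNA polymerases copy the strands, the PCNA clamp holds the polymerases in place, and ribonucleotide reductase, thymidylate synthase and thymidine kinase supply the deoxynucleotides. Many of these genes are transcribed together at the G1/S transition, when E2F transcription factors are released from the retinoblastoma protein, and their RNA is therefore widely read as a sign of cycling cells in tumours.

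The promoters of 6 members are shown because these genes share short stretches of the kind E2F proteins are known to recognise, a feature that the choice of members did not use. RefSeq promoter windows (GRCm38.p6, 250 bases before to 50 after each start) were matched by symbol for 30 members, and none was matched for Ccne2, Gins1, Gins2, Gmnn, Mcm4 and Pole. The letters TTTCCCGC, TTTCGCGC, TTTGCCGC and TTTGGCGC were searched on both strands, and overlapping matches were each counted. At least 1 of them stood in 13 of the 36 windows of these 30 members, which is 36.1%, against 2.26% of all 32851 windows of the same length. Counted by gene, they stood in 13 of 30 members, 43.3%, against 2.60% of all 27025 genes with a window and 1 of 17 mitosis genes with a window. The sequences run 5′ to 3′ along the gene for 170 bases that end at the base before the start, with the matched letters in capitals. Orc1, Cdc6, Pola1 and Mcm6 were among the members with lower levels in GrB-Fc-KS49 tumours at an unadjusted p under 0.05, whereas Mcm5 and Rfc3 were not. Every member with a match that was lower at that threshold is shown, while most of those with a match that were not lower are left out. The 6 shown therefore do not stand for all 13 members with a match.
Orc1 (chr4:108579284-108579453, plus strand): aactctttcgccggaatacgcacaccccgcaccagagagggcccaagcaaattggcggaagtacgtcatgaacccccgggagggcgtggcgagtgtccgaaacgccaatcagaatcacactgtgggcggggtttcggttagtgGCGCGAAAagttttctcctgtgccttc
Cdc6 (chr11:98907981-98908150, plus strand): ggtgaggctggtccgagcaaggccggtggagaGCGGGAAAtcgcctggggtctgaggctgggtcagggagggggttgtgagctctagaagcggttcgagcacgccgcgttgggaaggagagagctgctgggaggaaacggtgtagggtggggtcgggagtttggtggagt
Pola1 (chrX:93632156-93632325, minus strand): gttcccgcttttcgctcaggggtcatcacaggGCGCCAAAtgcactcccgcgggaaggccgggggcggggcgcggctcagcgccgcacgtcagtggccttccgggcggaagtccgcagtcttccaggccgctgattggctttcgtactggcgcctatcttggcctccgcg
Mcm6 (chr1:128359706-128359875, minus strand): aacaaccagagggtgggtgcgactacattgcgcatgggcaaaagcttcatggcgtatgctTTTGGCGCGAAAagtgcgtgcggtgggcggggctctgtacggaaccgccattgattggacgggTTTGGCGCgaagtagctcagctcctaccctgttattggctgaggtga
Mcm5 (chr8:75109339-75109508, plus strand): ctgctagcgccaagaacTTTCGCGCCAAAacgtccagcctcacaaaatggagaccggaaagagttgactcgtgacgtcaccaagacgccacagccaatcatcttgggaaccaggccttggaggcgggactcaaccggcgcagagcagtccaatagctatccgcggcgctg
Rfc3 (chr5:151651209-151651378, minus strand): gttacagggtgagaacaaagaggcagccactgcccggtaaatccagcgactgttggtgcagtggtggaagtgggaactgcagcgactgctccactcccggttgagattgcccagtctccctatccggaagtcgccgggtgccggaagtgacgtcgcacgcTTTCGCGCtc
In Mcm6 and Mcm5 a match on each strand overlaps to form 1 longer run of capitals, and in Mcm6 a further match lies nearer the start. The median log2 fold change, treated against control, was -0.10 over the 13 members with such letters in a window and 0.026 over the 17 without. Of these, 4 and 3 were lower at an unadjusted p under 0.05 by edgeR. Beside them stood 17.8% of all genes, and 28.4% of genes with mean levels in the members' range. The 6 members without a window, Ccne2, Pole and Gmnn among them, are in neither set, and the difference was not tested. A match is a description of the letters, and no binding was measured.

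Levels are given as CPM, counts per 1000000 counts of a library after scaling by edgeR's TMM factors, and fold changes as log2 of GrB-Fc-KS49 over IgG with their standard errors (SE). Where 4 values are given for a group, they stand in the order of replicates 1 to 4. Library totals ran from 73984425 to 82623962 estimated counts. The tumours are labelled as epithelial, and over the 8 libraries the simple keratin Krt8 ran from 391 to 631 CPM and the mesenchymal filament gene Vim from 4245 to 5137 CPM, chosen after their values were seen. The epithelial adhesion genes Cdh1 and Epcam, chosen likewise, ran from 4.05 to 36.9 CPM and from 2.73 to 16.02 CPM. Markers of other cells were uneven in the treated group. The summed level of 11 skeletal muscle markers was 2822 CPM in GrB-Fc-KS49 replicate 1, 356 in replicate 2, 439 in replicate 3 and 46.9 in replicate 4, against 49.4 to 228 CPM in controls. That of 7 epidermis markers was 2117 CPM in replicate 2 against 6.54 to 16.3 CPM. That of 8 adipocyte markers was 386 CPM in replicate 3 and 126 CPM in replicate 1, against 46.5 to 77.5 CPM, with replicates 2 and 4 at 63.1 and 69.2 CPM. The 10 T cell markers summed to 79.1, 48.6, 15.03 and 29.7 CPM in treated tumours, against 11.8 to 18.8 CPM in controls. B cell and macrophage markers, 6 and 10 genes, summed to 1.23 to 5.62 and 1189.8 to 2544 CPM in treated tumours against 0.653 to 1.19 and 1077 to 1283 CPM. The 6 endothelial markers summed to 167 to 254 against 128 to 250.1 CPM. Of these markers, Flg and Krt77 of the epidermis list were at 0 in some libraries, and in the other 6 lists none was. Their part in the differences between the groups was not tested. Because the strand used in counting is not given, reads of the 15 members that overlap a gene on the opposite strand may include that gene's reads.

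No member passed the test, edgeR's quasi-likelihood F test with Benjamini-Hochberg adjustment over 19718 genes and a threshold of 0.05. The smallest adjusted p of a member was 0.0619, which was also the smallest of any gene, and 0% of all genes passed. At an unadjusted p under 0.05, 10 members had lower and 1 had higher levels in GrB-Fc-KS49 tumours. That is 27.8% and 2.78% of the list, beside 17.8% lower and 17.3% higher among all genes, 35.1% in either direction. Among the 8848 genes whose mean CPM lay in the members' range the shares were 28.4% and 14.9%, so the lower share of the list is near that background. With upper quartile scaling the members split into 6 lower and 6 higher, beside 13.6% and 21.6% of all genes. Every treated tumour was below every control in 7 members (Orc1, Mcm6, Pola1, Pole, Rrm1, Rrm2 and Ccne2) and above in 2 (Gmnn and Rfc3). These are 19.4% and 5.56%, beside 15.3% and 10.3% of all genes and 24.4% and 11.1% of those in the members' CPM range. The differences were small. All 36 members had a log2 fold change between -0.48 and 0.42, with a median of -0.048 against 0.032 over all genes tested, and a median size of 0.16 against 0.28.

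Other analyses of the same libraries did call members, always as part of a larger set of genes. DESeq2 called 8 members lower (Orc1, Cdc6, Mcm6, Pola1, Pole, Rrm1, Rrm2 and Ccne2) and 1 higher (Gmnn), beside 24.1% of all genes, 12.6% lower and 11.5% higher. With a filter of 5 CPM in 4 libraries, edgeR called Pola1 and Ccne2 lower and Gmnn higher, beside 7.15% and 7.97% of the genes left. That filter also gave 6 members in each direction at an unadjusted p under 0.05, beside 20.3% lower and 21.1% higher. limma-voom with sample weights called Pola1 and Ccne2 lower, beside 6.55% of all genes, 4.16% lower and 2.39% higher, while limma-voom without weights called 1 gene (0.00507%), which was no member. Without GrB-Fc-KS49 replicate 1, edgeR called Pola1 and Ccne2 lower, where 4.09% of genes were called lower and 2.23% higher. Pola1 and Ccne2 were called lower in each of these analyses that called a member. Both also had the smallest unadjusted p of the members in the main test. All these analyses used the same libraries, so the repeated calls are not independent. Where levels were lower, fewer cells in S phase, a larger share of other cells and less of these RNAs per cell cannot be told apart in RNA of whole tumours.

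**Figure D1:**
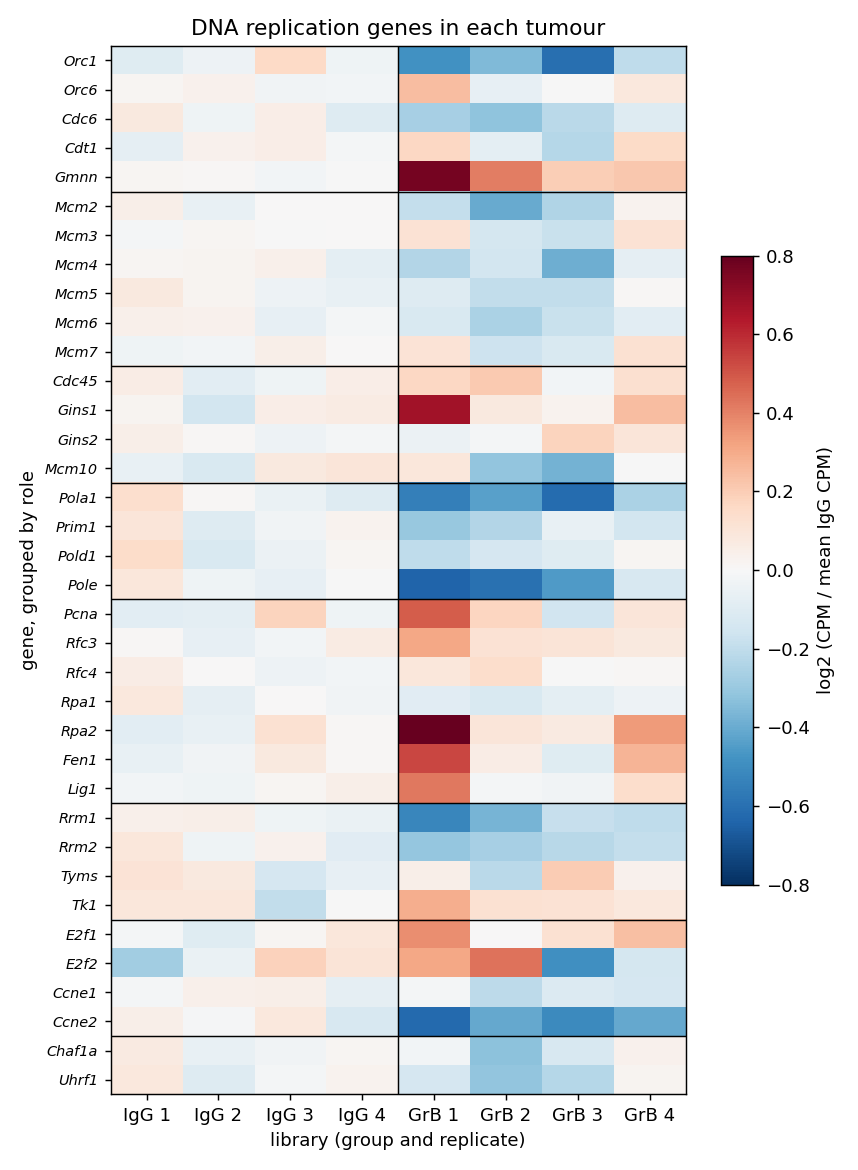
Each square is the log2 ratio of a gene's CPM in 1 library to its mean over the 4 IgG libraries, with genes in rows by role and libraries in columns, and colours end at -0.8 and 0.8. The 4 IgG columns are pale, while GrB-Fc-KS49 replicate 1 holds both the darkest red squares, with Rpa2 at 0.80, and some of the darkest blue ones, with Pole at -0.64.

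Among the origin licensing genes, Orc1, which encodes the largest ORC subunit, and Cdc6, the ATPase that helps ORC load the helicase, were lower at an unadjusted p under 0.05, and Gmnn, which encodes geminin, the inhibitor of Cdt1, was higher. Orc1 (ENSMUSG00000028587, chromosome 4, 108436620 to 108472030, plus strand, GRCm39 as are all gene positions here) was at 11.5, 12.6, 10.6 and 13.95 CPM in treated and at 15.1, 15.6, 17.96 and 15.7 CPM in control tumours. Each treated tumour was below each control, with group means of 12.2 ± 1.45 and 16.1 ± 1.29 CPM (SD, n = 4 each). edgeR gave Orc1 a log2 fold change of -0.40 ± 0.11 (SE), with an adjusted p of 0.0622. Cdc6 (ENSMUSG00000017499, chromosome 11, 98798627 to 98814766, plus strand) was at 16.7, 16.1, 17.4 and 18.8 CPM in treated and at 21.3, 19.7, 20.8 and 18.8 CPM in control tumours, where GrB-Fc-KS49 replicate 4 and IgG replicate 4 met at the same level (log2 fold change -0.22 ± 0.079 SE, adjusted p = 0.0912 by edgeR). Gmnn (ENSMUSG00000006715, chromosome 13, 24935828 to 24945906, minus strand) was at 33.2, 26.02, 22.4 and 22.7 CPM in treated and at 19.8, 19.7, 19.3 and 19.5 CPM in control tumours. The SD of the controls was 0.225 CPM and every treated tumour was above them, with replicate 1 the highest (log2 fold change 0.42 ± 0.13 SE, adjusted p = 0.0684 by edgeR). Without GrB-Fc-KS49 replicate 1 the log2 fold change of Gmnn was 0.28. Cdt1, the loading factor that geminin binds, and Orc6, the smallest ORC subunit, had log2 fold changes of 0.013 and 0.071 with SE of 0.10 and 0.078. Orc6 overlaps the more abundant Vps35 on the other strand.

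The 6 subunits of the MCM helicase, a ring that unwinds DNA ahead of the polymerases, all had group means below the controls. Of the 6, 2 (Mcm4 and Mcm6) were lower at an unadjusted p under 0.05. That is 33.3%, near the 28.4% of genes in the members' CPM range. With upper quartile scaling, the filter of 5 CPM in 4 libraries or the length and GC trends removed, 0 of 6 were. Mcm4 (ENSMUSG00000022673, chromosome 16, 15441761 to 15455264, minus strand) was at 93.1, 99.2, 83.6 and 104 CPM in treated and at 111, 111, 113 and 104 CPM in control tumours. Replicates 1 to 3 were below all controls while replicate 4 was within their range (log2 fold change -0.21 ± 0.079 SE, adjusted p = 0.107 by edgeR). Mcm6 (ENSMUSG00000026355, chromosome 1, 128259327 to 128287401, minus strand) was at 113, 104, 109 and 116 CPM in treated and at 127, 127, 118 and 122 CPM in control tumours, so that the groups did not overlap (log2 fold change -0.16 ± 0.063 SE, adjusted p = 0.113 by edgeR). With the trends with transcript length and GC content removed, Mcm6 was at 0.035, the other direction. Mcm2 and Mcm5 had log2 fold changes of -0.19 and -0.12, while Mcm3 and Mcm7 were near 0, at -0.014 and -0.0070, and turned positive under some other scalings (Mcm3 to 0.044 and Mcm7 to 0.051 with upper quartile scaling). Mcm7 overlaps the more abundant Cops6 on the opposite strand. Per kilobase of the longest coding transcript the subunits lay close together in controls, from 28.4 CPM per kb for Mcm6 to 44.3 for Mcm5, and in GrB-Fc-KS49 tumours from 25.4 to 40.8.

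None of the 4 genes that turn the loaded helicase on reached an unadjusted p under 0.05, which 35.1% of all genes did. Gins1, a subunit of GINS, was at 15.8, 10.5, 10.1 and 11.8 CPM in treated and at 10.1, 8.96, 10.3 and 10.4 CPM in control tumours. Of the treated tumours 3 were above all controls, replicate 1 by the most (log2 fold change 0.28 ± 0.15 SE, adjusted p = 0.207 by edgeR), and without it the log2 fold change was 0.12. Cdc45, a partner of MCM2-7 and GINS in the active helicase, was at 30.1, 30.97, 26.4 and 29.3 CPM in treated and at 27.9, 25.3, 26.2 and 27.8 CPM in control tumours (log2 fold change 0.12 ± 0.074 SE, adjusted p = 0.259 by edgeR), and 3 treated tumours were above all controls. It overlaps the more abundant Ufd1 on the opposite strand. Mcm10, a firing factor that stabilises the active helicase, went the other way in its mean and was at 28.1, 21.3, 20.3 and 26.4 CPM in treated and at 25.4, 24.2, 27.9 and 28.2 CPM in control tumours (log2 fold change -0.14 ± 0.12 SE, adjusted p = 0.425 by edgeR). Its treated values split, with replicates 2 and 3 below all controls and replicates 1 and 4 among them. For Gins2 it was 0.058 (SE 0.069).

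The catalytic subunits of 2 replicative polymerases were among the members with the lowest relative levels in GrB-Fc-KS49 tumours. Pola1, the catalytic subunit of DNA polymerase alpha, which extends the RNA primers (ENSMUSG00000006678, chromosome X, 92348373 to 92675761, minus strand), was at 22.6, 24.4, 21.5 and 27.7 CPM in treated and at 36.2, 33.2, 31.8 and 30.7 CPM in control tumours. The groups did not overlap, with means of 24.03 ± 2.695 and 32.9 ± 2.37 CPM (SD, n = 4 each). edgeR gave Pola1 a log2 fold change of -0.46 ± 0.10 (SE), with an adjusted p of 0.0619. Pole, the catalytic subunit of DNA polymerase epsilon, which copies the leading strand (ENSMUSG00000007080, chromosome 5, 110434172 to 110485340, plus strand), was at 19.4, 19.96, 22.1 and 27.7 CPM in treated and at 32.2, 29.5, 28.9 and 30.2 CPM in control tumours, with replicate 4 nearest the controls (log2 fold change -0.44 ± 0.12 SE, adjusted p = 0.0621 by edgeR). Prim1, the catalytic subunit of primase, had a log2 fold change of -0.18 at an unadjusted p of 0.0496 by edgeR, on the edge of that threshold. Pold1, the catalytic subunit of DNA polymerase delta, which copies the lagging strand, was at -0.10 ± 0.083 (SE). Without GrB-Fc-KS49 replicate 4, Pola1 and Pole had adjusted p of 0.0233 and 0.0233 by edgeR. There 7 members in all were called lower (Orc1, Mcm2, Pola1, Pole, Rrm1, Rrm2 and Ccne2) and 1 higher (Gmnn), beside 10% and 7.12% of all genes.

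**Figure D2:**
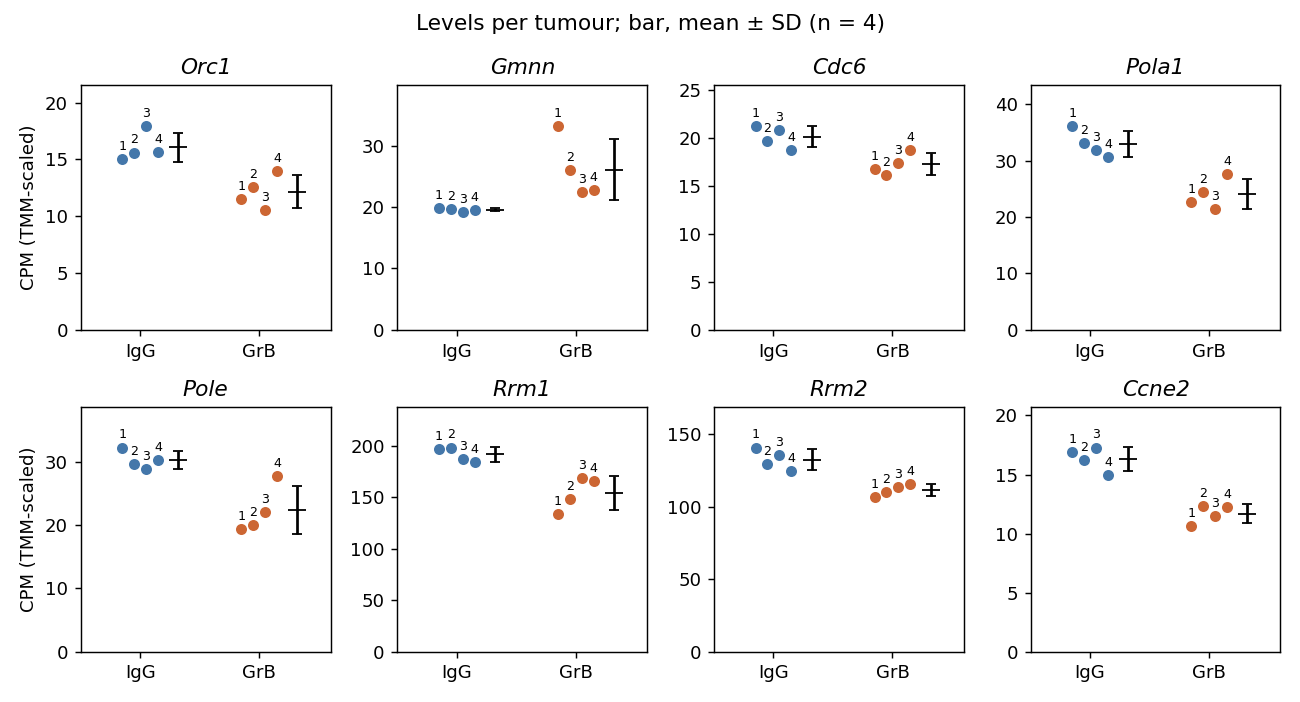
Levels in TMM-scaled CPM of 8 members in each tumour, with the replicate number above each point and the mean ± SD (n = 4) as a bar beside it. The blue IgG points are tightly grouped and lie above the orange GrB points in Orc1, Pola1, Pole, Rrm1, Rrm2 and Ccne2, meet them in Cdc6, and lie below them in Gmnn.

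In contrast to the polymerases, 6 of the 7 genes of the clamp, its loader and the lagging strand had means above the controls. Yet 0 of 7 were at an unadjusted p under 0.05, where 17.8% of all genes were lower and 17.3% higher. Rpa2, a subunit of the single-strand binding protein RPA (ENSMUSG00000028884, chromosome 4, 132495643 to 132506063, plus strand), was at 48.6, 29.7, 29.3 and 35.3 CPM in treated and at 26.3, 26.7, 30.3 and 28.01 CPM in control tumours. Replicate 1 was far above the other tumours and replicates 2 and 3 lay within the control range (log2 fold change 0.36 ± 0.16 SE, adjusted p = 0.145 by edgeR), and without replicate 1 the log2 fold change was 0.17. Rfc3, a subunit of the clamp loader RFC, was at 58.7, 51.3, 50.8 and 49.9 CPM in treated and at 47.7, 45.3, 46.6 and 49.6 CPM in control tumours, so that the groups did not overlap, although replicate 4 exceeded the highest control by little (log2 fold change 0.16 ± 0.072 SE, adjusted p = 0.161 by edgeR). With the length and GC trends removed Rfc3 turned to -0.035. Rpa1, the large RPA subunit and the exception in direction, was at 94.6, 92.3, 95.3 and 97.95 CPM in treated and at 107, 95.8, 101 and 98.9 CPM in control tumours (log2 fold change -0.082 ± 0.060 SE, adjusted p = 0.346 by edgeR). Fen1, the flap nuclease, Lig1, the ligase that joins Okazaki fragments, and Pcna, the clamp itself, had log2 fold changes of 0.21, 0.14 and 0.17, which were 0.087, 0.036 and 0.045 without GrB-Fc-KS49 replicate 1. Pcna was the most abundant member per kilobase of transcript, at 79.2 CPM per kb in controls and 89.04 in treated tumours. Rfc4 was at 0.059 ± 0.072 (SE) and overlaps the more abundant Eif4a2 on the opposite strand.

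Both subunits of ribonucleotide reductase, the enzyme that makes deoxynucleotides, were lower in every treated tumour than in every control. Rrm1, the large subunit (ENSMUSG00000030978, chromosome 7, 102090902 to 102118978, plus strand), was at 133, 148, 169 and 166 CPM in treated and at 197, 198.1, 187 and 184 CPM in control tumours, with means of 154 ± 16.5 and 191.4 ± 6.94 CPM (SD, n = 4 each). edgeR gave Rrm1 a log2 fold change of -0.31 ± 0.086 (SE), with an adjusted p of 0.0627. Rrm2, the S-phase small subunit (ENSMUSG00000020649, chromosome 12, 24758240 to 24764145, plus strand), was at 107, 110.1, 114 and 116 CPM in treated and at 141, 129, 135 and 124 CPM in control tumours. The SD was 3.99 CPM in treated tumours and 7.18 CPM in controls (log2 fold change -0.25 ± 0.064 SE, adjusted p = 0.0619 by edgeR). Only Pcna was above them per kilobase of transcript in controls, with Rrm2 at 60.5 and Rrm1 at 47.9 CPM per kb in controls. The 2 thymidylate enzymes differed less, with log2 fold changes of 0.026 ± 0.10 for thymidylate synthase (Tyms) and 0.16 ± 0.086 (SE) for thymidine kinase (Tk1), the salvage enzyme.

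Of the G1/S regulators, Ccne2, which encodes cyclin E2, a partner of Cdk2, had the smallest unadjusted p of all members (0.000378 by edgeR). It (ENSMUSG00000028212, chromosome 4, 11191351 to 11204779, plus strand) was at 10.6, 12.3, 11.5 and 12.3 CPM in treated and at 16.9, 16.2, 17.3 and 14.98 CPM in control tumours. All treated tumours were below all controls, with means of 11.7 ± 0.798 and 16.3 ± 1.01 CPM (SD, n = 4 each). edgeR gave Ccne2 a log2 fold change of -0.48 ± 0.086 (SE), with an adjusted p of 0.0619. Ccne2 overlaps Ints8 on the opposite strand, and Ints8 had 35.3 ± 5.26 CPM in treated and 50.3 ± 3.94 CPM in control tumours (SD, n = 4 each; log2 -0.51 ± 0.12 SE). Where the 2 genes overlap, their reads cannot be told apart without the strand. Ccne1, the other E-type cyclin, had a log2 fold change of -0.11 (SE 0.069). E2f1, an activating E2F, was at 52.96, 41.1, 44.5 and 48.4 CPM in treated and at 40.6, 38.3, 41.4 and 43.5 CPM in control tumours (log2 fold change 0.19 ± 0.090 SE, adjusted p = 0.164 by edgeR), with 3 treated tumours above all controls. E2f2 had treated values from 9.99 to 18.9 CPM around controls of 11.6 to 15.9 CPM, the widest relative spread of any member, with a coefficient of variation of 28.02% in treated tumours. The 2 members that act on new chromatin overlapped between the groups. Uhrf1, which guides maintenance DNA methylation, was at 101, 88.9, 94.7 and 112 CPM in treated and at 118, 103, 109.6 and 113 CPM in control tumours (log2 fold change -0.16 ± 0.086 SE, adjusted p = 0.2102 by edgeR). Chaf1a, the large subunit of the histone chaperone CAF-1, was at 71.4, 57.6, 66.3 and 74.3 CPM in treated and at 75.98, 69.4, 70.97 and 73.3 CPM in control tumours (log2 fold change -0.10 ± 0.087 SE, adjusted p = 0.416 by edgeR). In both genes replicate 2 was the lowest of all 8 tumours and replicate 4 lay within the control range.

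**Figure D3:**
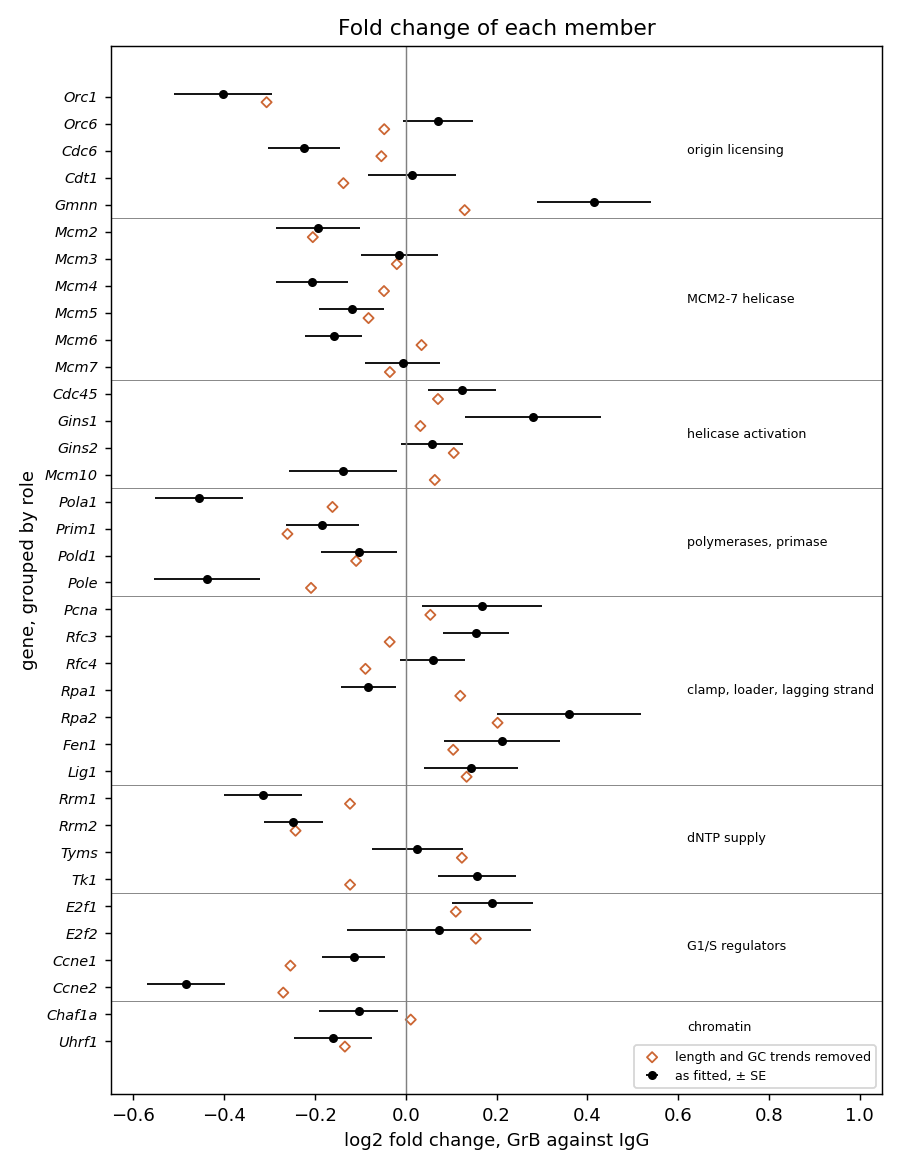
Log2 fold change of each member, GrB-Fc-KS49 against IgG, with genes in rows by role. Black points with bars are the edgeR estimates ± SE, and open orange diamonds are the estimates once each library's trends with transcript length and GC content were removed, which for Ccne2 move from -0.48 to -0.27 and for Gmnn from 0.42 to 0.13.

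The treated tumours were less alike in these genes than the controls. The coefficient of variation was larger in treated tumours for 32 of 36 members, and for 78.9% of all genes. The members' medians were 10.6% and 4.66% in treated and control tumours. In GrB-Fc-KS49 replicate 1, 16 members lay above and 16 below the range of the 4 controls, where 40.9% and 38.6% of all genes did. In replicates 2 and 3 most members lay below the range, 23 and 22 of 36, against 33.1% and 33.7% of all genes, and 7 and 6 lay above it, against 33.6% and 34.3%. Replicate 4 had 13 members above, 9 below and 14 within the range, where 24.2%, 29.9% and 45.97% of all genes lay. The median deviation of the members from their control mean was 0.016, -0.14, -0.12 and 0.024 on the log2 scale in replicates 1 to 4. Summed over the list, the members took 2248, 2008, 2024 and 2246 CPM in those tumours and 2201 to 2278 CPM in controls. This sum, to which the most abundant members add most, lay within the control range in replicates 1 and 4 and below it in replicates 2 and 3. In replicate 1 it joined members well below and well above the controls, from -0.64 for Pole to 0.80 for Rpa2 on the log2 scale.

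Transcript length moved with the differences. Over the 36 members the log2 fold change had a Spearman correlation of -0.60 with the length of the longest coding transcript and 0.34 with its GC content, and over 14439 protein-coding genes these were -0.46 and 0.30. These are descriptions across genes that share the same 8 libraries. The 18 shorter members, 1087 to 3014 bases, had a median log2 fold change of 0.10, and the 18 longer ones, 3031 to 7163 bases, a median of -0.13. Pole and Pola1, with transcripts of 7163 and 5346 bases, were on the low side and Gmnn and Gins1, with 1127 and 1087, on the high side. Of the 10 members lower at an unadjusted p under 0.05, 4 were among the shorter 18 (Prim1, Rrm2, Ccne2 and Orc1, with 1583, 2193, 3006 and 3014 bases) and 6 among the longer 18. Across all these genes, each library's deviation from the mean over libraries was correlated with length, with Spearman values of 0.32 to 0.39 for the controls and of -0.42 to -0.073 for the treated tumours, strongest in replicate 1 and weakest in replicate 4. With each library's trends with length and GC content removed, 5 members (Orc1, Pole, Rrm2, Ccne1 and Ccne2) were lower and 0 higher at an unadjusted p under 0.05, beside 11.5% and 12.1% of all genes covered, and 0 passed the adjusted threshold. The log2 fold changes became -0.16 for Pola1, -0.21 for Pole, -0.31 for Orc1, -0.27 for Ccne2, -0.12 for Rrm1, -0.048 for Mcm4, -0.054 for Cdc6 and 0.13 for Gmnn, while Rrm2 was at -0.24. Prim1 went from -0.18 to -0.26 and Ccne1 from -0.11 to -0.25, further below 0. Mcm6, at 0.035, and Rfc3, at -0.035, changed direction. What makes length and treatment go together was not tested.

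**Figure D4:**
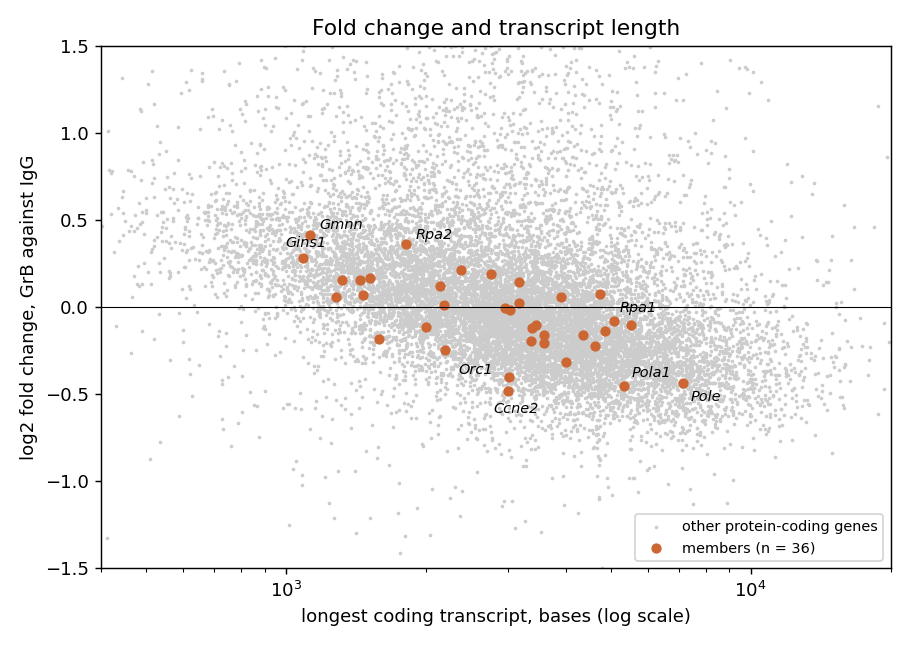
Log2 fold change, GrB-Fc-KS49 against IgG, by length of the longest coding transcript on a log scale, with the 36 members in orange and other protein-coding genes in grey (591 of 14439 genes lie outside the axes and are not drawn). The grey cloud slopes down with length and most members follow it, with Ccne2, Pola1 and Pole the lowest and Gmnn the highest.

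Ratios of 2 genes within a library do not depend on how libraries are scaled, and 6 pairs of partners are described in this way. The pairs were chosen after the values of their genes were seen, so no test is given. The level of Ccne2 relative to Ccne1 was 0.421, 0.558, 0.485 and 0.529 in treated and 0.6699, 0.619, 0.656 and 0.618 in control tumours, a log2 difference of -0.37 with no overlap. With the length and GC trends removed that difference was -0.014, as Ccne2 went from -0.48 to -0.27 and Ccne1 from -0.11 to -0.25. Pole relative to Pold1 was 0.8597, 0.846, 0.913 and 1.055 in treated and 1.12, 1.24, 1.15 and 1.15 in control tumours, and its log2 difference was -0.35, or -0.11 with the trends removed. Gmnn relative to Cdt1, the inhibitor against its target, was 0.605, 0.561, 0.536 and 0.416 in treated and 0.424, 0.393, 0.3796 and 0.403 in control tumours. Its log2 difference was 0.39, or 0.28 with the trends removed, and replicate 4 lay in the control range. Replicate 4 also lay in that range for Pola1 relative to Prim1, whose log2 difference of -0.27 was 0.10 with the trends removed. E2f8, a repressor E2F that is not a member, relative to E2f1 was 0.912, 1.68, 1.65 and 2.16 in treated and 2.77, 3.33, 2.81 and 2.68 in control tumours, a log2 difference of -0.92 that was -0.74 with the trends removed. Rrm2b, the p53-inducible small subunit of ribonucleotide reductase, relative to Rrm2 had a log2 difference of -0.41, or -0.12 with the trends removed. Each of the 6 differences kept its sign with any 1 library left out. For pairs without overlap between the groups this outcome was fixed in advance, so it is no support for them.

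The rest of the replication pathway was read from lists chosen by function. No gene of them passed the adjusted threshold. Of 35 other replisome genes, 11 were lower and 4 higher at an unadjusted p under 0.05 by edgeR, with a median log2 fold change of -0.050. That is 31.4% and 11.4%, beside 17.8% and 17.3% of all genes, or 28.4% and 14.9% of genes in the members' CPM range. Orc2 and Orc4, further ORC subunits, were at 36.6 ± 2.62 against 48.4 ± 2.47 CPM and at 25.7 ± 2.36 against 32.8 ± 2.32 CPM (SD, n = 4 each). Like Orc1, they were below the controls in every treated tumour, whereas Orc6 overlapped between the groups. Below all controls lay 28.6% of this list, beside 15.3% of all genes and 24.4% of those in the members' CPM range. Topbp1, a scaffold for origin firing, was at 86.5 ± 9.38 against 118 ± 7.999 CPM, and Dbf4, the activator of the Cdc7 kinase, at 73.3 ± 6.73 against 91.995 ± 3.77 CPM. On the other side, Rnaseh2c, a subunit of RNase H2, which removes ribonucleotides from DNA, was at 14.4 ± 2.59 against 10.1 ± 0.207 CPM, and Pold4, the smallest subunit of polymerase delta, at 43.7 ± 4.602 against 33.3 ± 2.85 CPM. Both are short genes, with transcripts of 1126 and 913 bases, beside 5224 for Topbp1 and 2402 for Dbf4.

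Among 19 other nucleotide and S-phase genes, 8 were lower and 3 higher at an unadjusted p under 0.05 by edgeR (median -0.10). That is 42.1% and 15.8%, beside 17.8% and 17.3% of all genes, or 28.4% and 14.9% of genes in the members' CPM range. With the length and GC trends removed 3 were lower and 2 higher, beside 11.5% and 12.1% of all genes covered. Usp1, a deubiquitinase that acts on PCNA, was at 116 ± 4.97 against 149 ± 7.003 CPM, Rrm2b at 8.47 ± 1.47 against 13.2 ± 1.08 CPM, Exo1, a repair exonuclease, at 10.4 ± 1.01 against 13.5 ± 0.173 CPM, Brca1, which acts in homologous recombination, at 22.97 ± 2.68 against 29.5 ± 2.17 CPM, and Dnmt1, the maintenance methyltransferase that Uhrf1 guides, at 98.8 ± 12.5 against 124 ± 3.87 CPM (SD, n = 4 each). Dut, which breaks down dUTP and so keeps uracil out of DNA, was at 148 ± 4.41 against 123 ± 6.81 CPM, above the controls in every treated tumour.

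Of 27 other genes that control the G1/S transition, 10 were lower and 1 higher at an unadjusted p under 0.05 by edgeR (median -0.15). That is 37.04% and 3.704%, beside 17.8% and 17.3% of all genes, or 28.4% and 14.9% of genes in the members' CPM range. With the length and GC trends removed 5 were lower and 1 higher, beside 11.5% and 12.1% of all genes covered. Genes on both sides of the E2F switch were among the 10 lower ones. Tfdp1, a partner with which many but not all E2F proteins bind DNA, was at 120.8 ± 21.6 against 168 ± 10.4 CPM (SD, n = 4 each). The retinoblastoma gene Rb1 was at 18.4 ± 1.96 against 23.3 ± 0.427 CPM and its relative Rbl1, which encodes p107, at 30.6 ± 3.098 against 40.7 ± 1.77 CPM (SD, n = 4 each). The repressor genes E2f6 and E2f7 were at 25.8 ± 0.955 against 30.9 ± 1.96 CPM and at 19.3 ± 2.73 against 24.8 ± 0.987 CPM, and E2f8, named after its values were seen, at 48.3, 69.1, 73.3 and 104 CPM in treated replicates 1 to 4 and at 112, 127, 116 and 117 CPM in controls. Skp2, which marks the inhibitor p27 for destruction, was at 22.1 ± 2.41 against 30.5 ± 2.54 CPM. Cdkn1a, which encodes p21, was at 193, 144, 74.5 and 146 CPM in treated and 127, 121.4, 130.2 and 112 CPM in control replicates 1 to 4 (log2 fold change 0.18 ± 0.24 SE, named after its values were seen), with treated tumours on both sides of the controls.

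Mitosis genes give a second view of cycling cells. Of 20, 10 were lower and 1 higher at an unadjusted p under 0.05 by edgeR, beside 17.8% and 17.3% of all genes and 28.4% and 14.9% of those in the members' CPM range. The list had a median log2 fold change of -0.20 against -0.048 for the 36 replication genes. The difference between the lists was not tested. Mki67, a marker of cycling cells, had a log2 fold change of -0.45 ± 0.11, close to those of Pola1, Pole and Ccne2, and the kinesins Kif11 and Kif20a, the checkpoint kinases Bub1 and Bub1b and the cyclin Ccnb1 had -0.38, -0.33, -0.52, -0.28 and -0.37. Top2a, a topoisomerase of S and G2 phase cells, was at 303 ± 31.8 against 320.3 ± 10.7 CPM (SD, n = 4 each). With the length and GC trends removed the mitosis list had 6 lower and 3 higher, with a median of -0.12. The other replisome genes had 11 and 1 there, beside 11.5% lower and 12.1% higher of all genes covered.

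**Figure D5:**
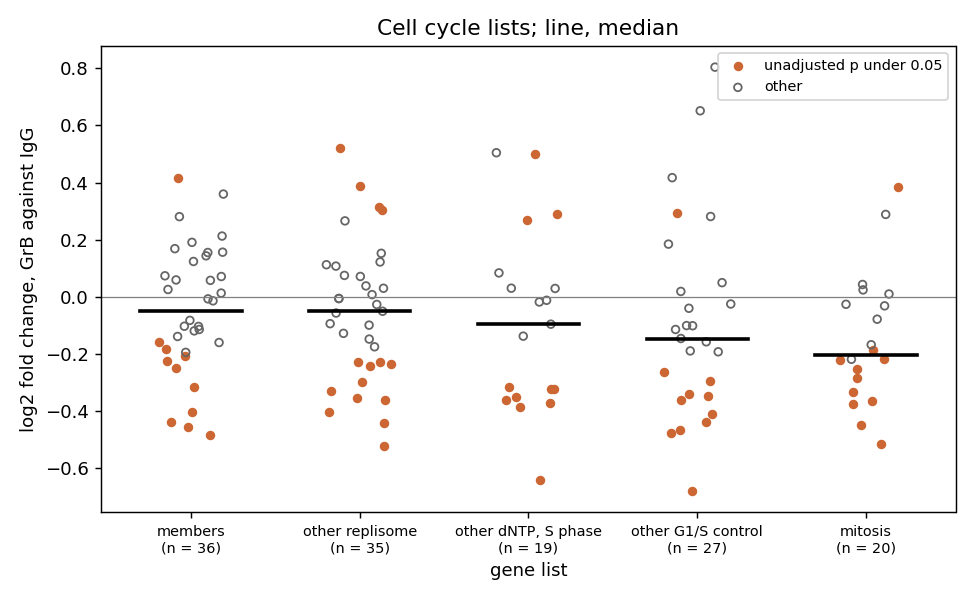
Log2 fold change, GrB-Fc-KS49 against IgG, of each gene in 5 cell cycle lists, with filled orange points at an unadjusted p under 0.05 by edgeR, open points for the others and a line at the list's median. Medians run from -0.048 for the 36 members to -0.20 for mitosis, and every list holds genes on both sides of 0.

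Within the list, Pcna and Rrm2 had the highest levels per kilobase of transcript in both groups. In controls Pcna, Rrm2, Rrm1 and Mcm5 were highest, and E2f2, Pole, Cdc6 and Orc1 lowest, at 2.96, 4.22, 4.36 and 5.33 CPM per kb. In GrB-Fc-KS49 tumours Pole was at 3.11 and E2f2 at 3.11 CPM per kb, level with each other, and Ccne2 and Orc1 were at 3.89 and 4.03. Among the members that did not overlap between the groups, Orc1, Ccne2 and Pole were thus among the least abundant of the list, and Rrm1 and Rrm2 among the most.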

How the data were processed

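Poly(A) RNA libraries were made with a stranded dUTP kit, per the labels' protocols. The submitters' processing notes name bcl2fastq 2.19.1.403, STAR and GRCm39; no quantifier, annotation release or strand setting was found there or in the labels. The authors deposited estimated counts per gene (46.04% to 47.8% of values per library were whole) and CPM, which equal the same counts plus 0.0001 scaled to 1000000 per library.

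Estimated counts were rounded, filtered with filterByExpr (19718 of 26709 genes kept) and scaled by TMM. All 8 libraries were compared with edgeR 4.0.16 robust quasi-likelihood F tests (R 4.3.3), adjusted by Benjamini-Hochberg over all genes. On data simulated with 50 genes changed at each fold, the test recovered 0% at 1.25-fold, 8% at 1.5-fold, 34% at 2-fold and 80% at 4-fold. Of the genes it called there, 16.4% were unchanged ones. The simulated data had few changed genes, no trends with length or GC content and no uneven cell content. These rates therefore do not measure how well the test recovers changes in these tumours. SE is the log2 fold change divided by the square root of F. Alternatives used limma 3.58.1, DESeq2 1.42.0 and mgcv 1.9.3 (smooth trends with length and GC content of GENCODE M21 transcripts, matched by gene ID, chosen after seeing the data). The length of the longest coding transcript served for levels per kilobase. Deposited ends were taken as 1 past the last base. Replicates are numbered in accession order and pair nothing. Values in every library are given for the 2 members of each role group with the smallest unadjusted p and for those against their group's majority, up to 6 genes of each other pathway list are named by smallest p, and others are said to be chosen after their values were seen. The members, lists and rules were chosen with earlier results of these data known.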

Additional observations from a re-analysis of the deposited data

Results flagged for a closer look

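GrB-Fc-KS49 replicate 1 stood apart from the other treated tumours in 2 members by Dixon's criterion for groups of 4. Rfc3 was at 58.7 CPM there against 49.9 to 51.3 CPM in the other 3 treated tumours, and Tk1 was at 58.9 CPM against 51.03 to 52.3 CPM. The criterion marks about 1 in 20 groups by chance, and 72 groups were examined (36 members in each of 2 groups of tumours).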

How the results depend on the processing

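Main counts were 0 members past the adjusted threshold and 10 lower and 1 higher at an unadjusted p under 0.05. Beside them stood 0%, 17.8% and 17.3% of all genes. The adjusted count became 3 (Pola1 and Ccne2 lower, Gmnn higher) with a filter of 5 CPM in 4 libraries, 9 with DESeq2 and 2 (Pola1 and Ccne2) with limma-voom sample weights, where 15.1%, 24.1% and 6.55% of all genes were called. With 1 library left out it ran from 0 to 8. It was 2 (Pola1 and Ccne2) without GrB-Fc-KS49 replicate 1, beside 6.32% of all genes, 8 without replicate 4, beside 17.1%, and 0 otherwise. The lower count was 6 with upper quartile scaling and 6 with the stricter filter, beside 13.6% and 20.3% of the genes tested. It was 6 without IgG replicate 1 and GrB-Fc-KS49 replicate 3, whose titles end in U, beside 13.1%. It was 6 without GrB-Fc-KS49 replicates 1 and 2, beside 13.1%, and 5 with the length and GC trends removed, beside 11.5%. With 1 library left out the lower count ran from 6 without IgG replicate 1, beside 11.4%, to 12 without GrB-Fc-KS49 replicate 4, beside 18.9%. The higher count was 0 with the trends removed, beside 12.1% of the genes tested. It was 2 with DESeq2's scaling factors, without a filter or with the U suffix as covariate, beside 17.6%, 15% and 17.5%. It was 3 with DESeq2, on log2(CPM + 1) or log2(CPM + 0.25), over protein-coding genes with a transcript, or without GrB-Fc-KS49 replicates 1 and 2. Beside these stood 18.7%, 16.1%, 16.2%, 17.9% and 10.9%. Library totals gave 4, beside 19.1%. Upper quartile scaling and the stricter filter gave 6 each, beside 21.6% and 21.1%. With 1 library left out the higher count ran from 1 to 4. The highest were 4 without GrB-Fc-KS49 replicate 3, 3 without replicate 2 and 3 without IgG replicate 4, beside 18.8%, 17% and 15.9%. Of all genes at an unadjusted p under 0.05, the higher ones made up 49.2% in the main analysis and 61.4% with upper quartile scaling. The members' median log2 fold change stayed between -0.082 and 0.015 over the 23 alternatives.

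Some members changed sign. Mcm3 and Mcm7 became 0.044 and 0.051 with upper quartile scaling, 0.0076 and 0.015 with library totals, 0.049 and 0.056 with the stricter filter, 0.0020 and 0.0097 on log2(CPM + 1), 0.0019 and 0.0098 on log2(CPM + 0.25), 0.031 and 0.016 without the U libraries, and 0.0072 and 0.014 over protein-coding genes with a transcript. Cdt1 became -0.0039 without a filter, and Cdt1 and E2f2 -0.014 and -0.0020 with sample weights. Tyms became -0.0035 without the U libraries. Without GrB-Fc-KS49 replicates 1 and 2, an alternative added after seeing the data, Cdt1, Mcm7, Pcna and E2f2 were at -0.010, 0.019, -0.010 and -0.29. With the trends removed, Orc6, Cdt1, Mcm6, Mcm10, Rfc3, Rfc4, Rpa1, Tk1 and Chaf1a were at -0.047, -0.14, 0.035, 0.064, -0.035, -0.089, 0.12, -0.12 and 0.011, and the log2 ratio difference of Pola1 to Prim1 was 0.10. Of these, Mcm6 and Rfc3 were among the members without overlap between the groups, at -0.16 and 0.16 in the main analysis, and Tk1 and Mcm10 were at 0.16 and -0.14 there. With 1 library left out, ranges were -0.064 to 0.040 for Mcm3, -0.056 to 0.057 for Mcm7, -0.042 to 0.083 for Cdt1, -0.042 to 0.11 for Tyms and -0.058 to 0.22 for E2f2. The cause of these changes was not tested. No paired analysis was possible because the labels give no replicate numbers shared between the groups.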
